A study of Mus musculus with 8 samples.

Results

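The J-domain co-chaperones are the partners that deliver client proteins to the HSP70 chaperones. The genes described here are those whose symbol in the deposited table reads Dnaja, Dnajb or Dnajc followed by a number, leaving out Dnajb1 and any pseudogene. That rule found 44 of the 21959 genes in the table: 4 of class A, 12 of class B and 28 of class C. The study concerns the effect of isoliensinine, an alkaloid from plants, on mouse sleep, and sequenced polyadenylated RNA from brain tissue in 8 libraries. Both groups are labelled wild type. In 4 libraries, called Model, the treatment label is PCPA (para-chlorophenylalanine, which blocks tryptophan hydroxylase, an enzyme of serotonin synthesis), and in 4, called IsoL, it is isoliensinine. By the design text the mice were ICR females, dosed over 7 days and killed after a pentobarbital injection, with the hypothalamus dissected, while the tissue label reads brain. It lists IsoL at 12.5, 25 and 50 mg/kg, and the labels do not say which dose was sequenced, whether the IsoL mice also had PCPA, or the age of the mice. Whether each library came from its own mouse is not stated, so p-values rest on the spread among the libraries alone, and that spread may be technical.

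Most J-domain proteins carry a histidine-proline-aspartate motif with which they switch on the ATPase of HSP70, so that HSP70 grips its client. Class A members also have a glycine- and phenylalanine-rich region and a zinc-binding domain, class B members have the glycine- and phenylalanine-rich region without the zinc-binding domain, and class C members share only the J domain. Classes A and B mostly hold unfolded proteins, and class C members bring HSP70 to particular tasks, such as uncoating synaptic vesicles, pulling proteins into mitochondria or folding in the endoplasmic reticulum (ER). In neurons, defects in several of them cause movement disorders, neuropathies or neurodegeneration.

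No J-domain gene besides Dnajb1 passed the test between IsoL and Model, and nearly all were measured closely enough to bound the difference. Of the 44 members, 40 passed the filter on low counts and were tested, and 0 of the 40 had a Benjamini-Hochberg adjusted p under 0.05 in edgeR's quasi-likelihood test. Over all 14536 tested genes 40 passed, which is 0.275%. At an unadjusted p under 0.05 there were 8 members (20%), beside 13.2% of all tested genes. At that p, 6 of the 40 were lower in IsoL, beside 6.78% of all tested genes, and 2 of the 40 were higher, beside 6.44%. The median log2 fold change of the tested members was -0.00554, with 21 below Model and 19 above, beside -0.00146 and 50.5% below over all tested genes. The median size of the change, ignoring its sign, was 0.055 on the log2 scale, beside 0.089 over all tested genes. The members also had more reads, with a median level of 65.1 CPM (read counts relative to the TMM-scaled library size) beside 26.3 over all tested genes. For 36 of the 40 the 95% interval of the fold change lay within 1.5-fold in either direction, and for 28 within 1.2-fold. The 4 members whose intervals reached further, Dnajb3, Dnajb13, Dnajc22 and Dnajc30, each had fewer than 1000 counts summed over the 8 libraries.

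The other tools called up to 3 members. DESeq2 called Dnaja1, Dnajb4 and Dnajc27, in a fit that called 2.07% of genes. The limma voom fit with quality weights called Dnajc27, in a fit that called 1.64%. Without Model 2, edgeR called Dnajc27 too, with 0.998% of genes called. At an adjusted p under 0.10 edgeR called only Dnajb4, beside 0.949% of all tested genes.

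**Figure D1:**
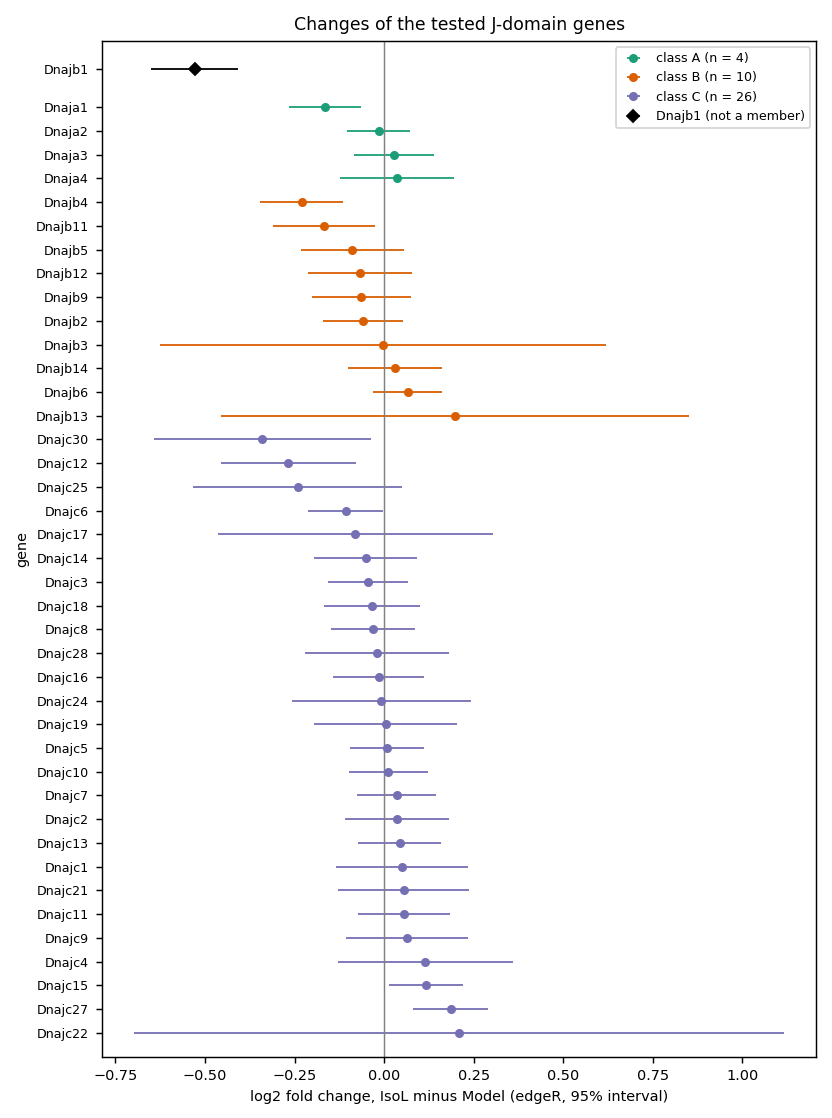
Fold change of each of the 40 tested J-domain genes, as log2 of IsoL over Model from edgeR with its 95% interval (x axis), ordered within class A, B and C (y axis, colours), and of Dnajb1 (black). Most points lie close to 0 with short intervals, and Dnajb1 stands at -0.53, below every member.

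Some facts of the libraries bear on these genes. Summed counts ran from 14262836 to 21620466 and 16669 to 17183 genes were detected, so that 3 counts, taken as the limit of detection for counting error only, correspond to 0.138 to 0.210 CPM. Genes of the Y chromosome had 4330 to 6779 counts in each of the 8 libraries, which goes against the stated sex. Model 2 stood apart from the other Model libraries, with a chi-square of its counts, per degree of freedom, from 10.9 to 12.4 when paired with them, while pairs among the other Model libraries gave 2.52 to 7.48. Among the 40 tested members, Model 2 was the highest Model library for 19 and the lowest for 9, so it was at an end of its group for 28, against 17 or 18 for each other Model library and 17 to 22 for the IsoL libraries. Among the 15 tested hypothalamic marker genes 12 were below Model, 1 passed, and their summed level was 274 to 329 CPM in Model and 148 to 251 CPM in IsoL. None of these markers was at 0. The summed choroid plexus markers were at 8.18 to 18.4 CPM in Model and 10.6 to 674 CPM in IsoL. The median log2 fold change of the hypothalamic list was -0.651. All 5 astrocyte, 5 oligodendrocyte and 4 microglial markers were above Model, and 0 passed. Of 4 neuronal markers, 3 were below. Summed astrocyte markers were at 1982 to 2024 CPM in Model and 2070 to 2253 CPM in IsoL. The oligodendrocyte, microglial and neuronal sums overlapped between the groups. The part of these marker lists in the results below was not tested. In bulk RNA, fewer cells of a type and less RNA per cell cannot be told apart.

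Levels compared between genes are the deposited FPKM, counts scaled to the table's gene length and to the library's summed counts. Dnajc6, which encodes auxilin, the neuronal factor that strips clathrin from endocytosed vesicles, had the highest level, at 83.5 ± 3.40 FPKM in Model and 77.8 ± 2.45 in IsoL (SD, n = 4 each). Dnaja2, a cytosolic partner of constitutive HSP70, and Dnajc5, the cysteine string protein alpha of synaptic vesicles, followed at means of 64.4 and 64.1 FPKM over the 8 libraries, and their ranges overlapped each other but not that of Dnajc6. Then came Dnaja1 at 47.1, Dnajc27 at 44.8 and Dnajc8 at 38.2 FPKM, each with a range that overlapped the next in the order. These 6 genes together made up 47.0 to 48.1% of the summed FPKM of all 44 members in each library. Class A took 18.2 to 19.4% of that sum, class B 20.6 to 22.1% and class C 58.6 to 60.5%. In all, 3 members were above 50 FPKM, 19 between 10 and 50, 15 between 1 and 10, and 7 below 1.

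**Figure D2:**
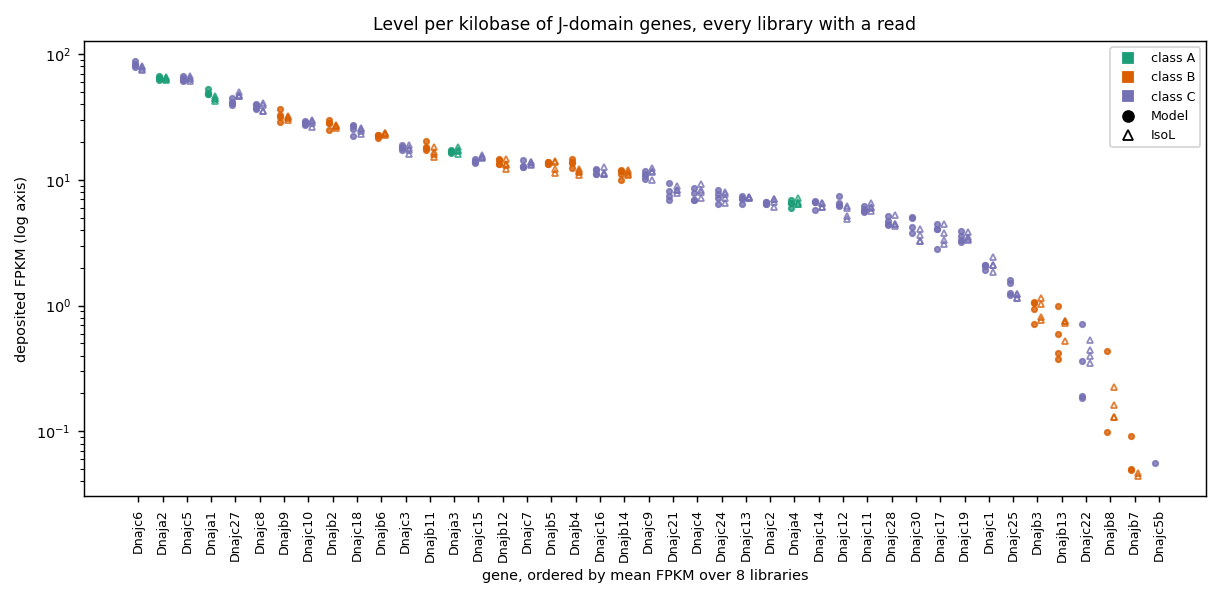
Deposited FPKM (log axis) of J-domain genes in every library where the gene had a read, ordered by mean level. Filled circles are Model, open triangles IsoL, and colours the class; the order runs from Dnajc6 near 80 FPKM to Dnajc5b, which had 1 read in all, and Dnajc5g, with no read, is not drawn.

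The 4 members that were not tested had next to no reads. Dnajc5g, a relative of Dnajc5, had 0 counts in all 8 libraries, and Dnajc5b, another relative, had 1 count in Model 3. Dnajb7 had 6 counts over all libraries and Dnajb8 had 27, of which 9 were in Model 1. Both are known from testis. Dnajb3, also a testis gene, was read at 11 to 26 counts in every library, and Dnajb13, a component of sperm tails and motile cilia, at 15 to 39. In the deposited coordinates all 1051 bases of Dnajb3 overlap Ugt1a genes on the opposite strand. The part of this overlap in its counts was not tested. The Dnajb13 level was 1.64 ± 0.761 CPM in the Model libraries and 1.89 ± 0.318 in the IsoL libraries (log2 0.20, 95% interval -0.45 to 0.85). Summed ependymal and motile cilium markers were at 79.4 to 104 CPM in Model and 85.8 to 99.4 in IsoL, so these groups overlapped as well.

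Class A holds the general cytosolic partners of HSP70 and 1 mitochondrial one. Dnaja1, a farnesylated cytosolic co-chaperone that is among the most abundant of the family (ENSMUSG00000028410, chromosome 4, 40722150 to 40737149 in the deposited table; its genome build is not stated in the labels or headers), read 423, 458, 420 and 418 CPM in Model 1 to 4 and 367, 382, 387 and 396 CPM in IsoL 1 to 4. Every IsoL library was below every Model library, and Model 2 was the highest of all. The means were 430 ± 19.0 and 383 ± 12.1 CPM, a log2 fold change of -0.17 (SE 0.046, 95% interval -0.26 to -0.07), which missed the threshold in edgeR (adjusted p = 0.145) but not in DESeq2 (adjusted p = 0.0275). Dnaja1 shares 608 bases at its 3′ end with Smu1 on the opposite strand, which had a log2 fold change of 0.13, and no strand marking of the reads is stated. Dnaja2 had a mean of 193 ± 3.67 CPM in the Model libraries and 191 ± 3.38 in the IsoL libraries, with a 95% interval of -0.10 to 0.07 on the log2 scale. Dnaja3, the partner of the mitochondrial HSP70 in the matrix, was at 66.1 ± 0.768 and 67.4 ± 3.53 CPM (log2 0.03, interval -0.08 to 0.14). Dnaja4, a cytosolic relative at a lower level, was at 23.4 ± 1.39 and 24.0 ± 1.17 CPM (log2 0.04, interval -0.12 to 0.20). So 1 of the 4 class A genes had groups that did not overlap. Over the 40 tested members there were 4 such genes (10%), beside 8.48% of all tested genes. In 3 of the 40 every IsoL library was below every Model library, beside 4.42% of all tested genes.

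Among class B, the relatives of Dnajb1 are the closest comparison for it. Dnajb4 (ENSMUSG00000028035, chromosome 3, 151884148 to 151915939 in the deposited table), a cytosolic protein built like Dnajb1, read 121, 128, 120 and 110 CPM in Model 1 to 4 and 101, 104, 96.3 and 106 CPM in IsoL 1 to 4. The groups did not overlap, although the lowest Model and the highest IsoL library lay close together. The means of 120 ± 7.15 and 102 ± 4.45 CPM gave the smallest p of the family (log2 -0.23, SE 0.054, interval -0.35 to -0.11, edgeR adjusted p = 0.0946, DESeq2 adjusted p = 0.0150). Dnajb5, the other close relative, read 78.8 to 82.6 CPM in Model. Its IsoL libraries parted, with 83.7 and 82.3 CPM in IsoL 1 and 2 and 67.3 and 72.2 CPM in IsoL 3 and 4. Marker lists parted the same libraries: summed cortical and hippocampal markers were at 264 and 272 CPM in IsoL 1 and 2 and 211 and 208 in IsoL 3 and 4, and choroid plexus markers at 674 and 578 against 59.8 and 10.6 CPM. In the Model libraries the cortical and hippocampal sums were 212 to 252 CPM and the choroid plexus sums 8.18 to 18.4 CPM. The lowest of these cortical and hippocampal sums, 212 CPM, was in Model 2, where Dnajb5 was at 78.8 CPM. The part of either marker list in the Dnajb5 values was not tested. The log2 fold change of Dnajb5 was -0.09 (interval -0.23 to 0.05, edgeR adjusted p = 0.601).

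Dnajb1 itself, the HSP40 that the heat shock factor induces, is given here only as the yardstick. It read 76.7, 77.0, 76.3 and 80.7 CPM in Model 1 to 4 and 51.1, 50.6, 55.3 and 58.2 CPM in IsoL 1 to 4 (log2 -0.53, interval -0.65 to -0.41, edgeR adjusted p = 0.00359). The intervals of 33 of the 40 members lay wholly above that of Dnajb1, and the other 7 were Dnajb3, Dnajb13, Dnajc12, Dnajc17, Dnajc22, Dnajc25 and Dnajc30. Ratios within a library, in which scaling between libraries cancels, show the size of the gap. The log2 ratio of Dnajb1 to Dnaja1 was -2.47 ± 0.082 in Model and -2.83 ± 0.064 in IsoL (SD, n = 4 each). The ratio of Dnajb1 to Dnajb4 was -0.62 ± 0.12 and -0.92 ± 0.11, and that to Dnajb5 was -0.06 ± 0.036 and -0.50 ± 0.24. With any 1 library left out, the difference between groups was -0.40 to -0.34 for Dnaja1, -0.34 to -0.24 for Dnajb4 and -0.51 to -0.37 for Dnajb5. Dnajb1 has the smallest p of all 14536 tested genes and was the basis of the comparison, so its lower ratios are a description and carry no test.

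**Figure D3:**
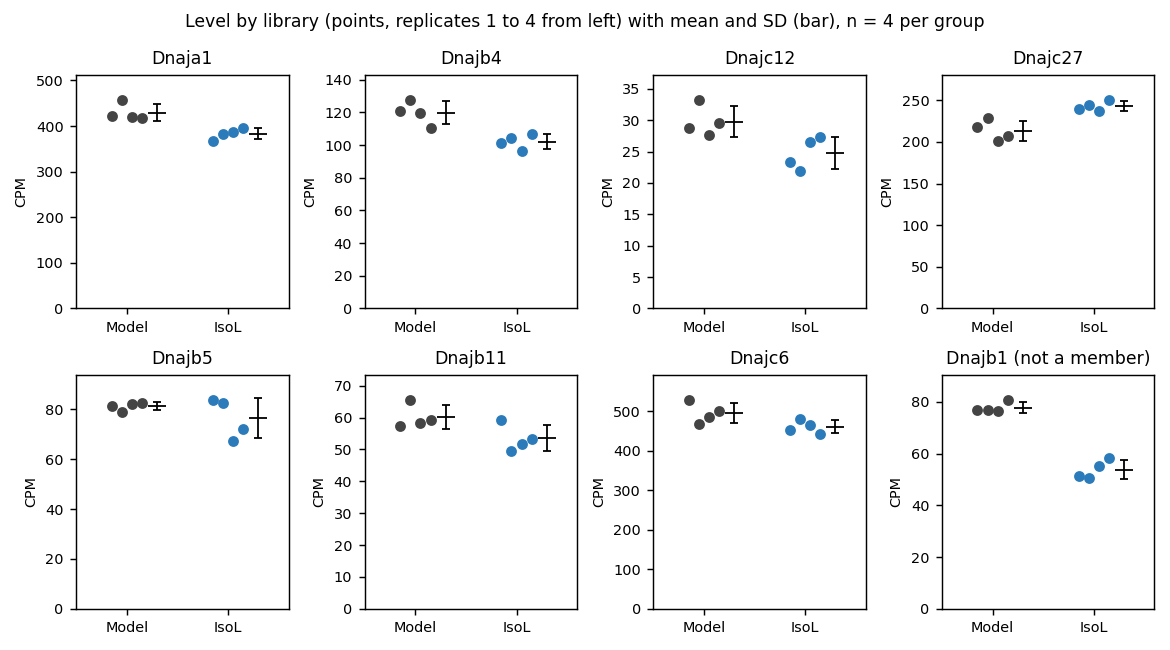
CPM (y axis, from 0) in every library of 7 J-domain genes and of Dnajb1; points are replicates 1 to 4 from left to right, and the bar gives mean and SD of 4 libraries. Dnaja1, Dnajb4 and Dnajc12 have all IsoL points below all Model points, Dnajc27 has them above, and the gap of Dnajb1 is wider than any of these.

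Dnajb6, which keeps polyglutamine proteins from aggregating, had a mean of 135 ± 4.49 CPM in the Model libraries and 141 ± 3.01 in the IsoL libraries (log2 0.07, interval -0.03 to 0.16). Dnajb2, a neuron-enriched protein that passes clients to the proteasome, was at 119 ± 7.52 and 114 ± 2.91 CPM (log2 -0.06, interval -0.17 to 0.05). Dnajb12, which works with HSP70 at the ER membrane in the removal of misfolded proteins, was at 47.3 ± 2.19 and 45.1 ± 3.69 CPM (log2 -0.07, interval -0.21 to 0.08). Over class B, 7 of 10 tested members were below Model with a median log2 fold change of -0.06. In class A the median was 0.00616 with 2 of 4 below, and in class C it was 0.00626 with 12 of 26 below.

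Promoters were searched for the heat shock element, the site of heat shock factor, because Dnaja1 and Dnajb4 lay below Model together with Dnajb1. RefSeq promoters (GRCm38.p6, 250 bases before to 50 after a start) were found for 36 of the 44 members, in 48 windows. The full element was read as units GAA, TTC, GAA or TTC, GAA, TTC with 2 free bases between units, so that both strands count. It is in 0.603% of all 32851 windows and in 2 of the 48 member windows, both of 1 member, Dnajb6. A shorter pair of units, GAA then TTC or TTC then GAA with 2 free bases between, is contained in the full element and was added after the values were seen. It is in 15.1% of all windows and in a similar share of the member windows, 8 of 48. These belong to 7 members, among them Dnaja1, Dnajb4, Dnajb6 and Dnajc27, the last of which was higher in IsoL. The ER stress element, CCAAT and CCACG with 9 free bases between, on either strand, is in 0.119% of all windows and in that of Dnajc3. The stretches of these 5 genes are shown because they set the members with the smallest p beside one with the full element and one with the ER element; capitals mark the fixed letters of each match, read 5′ to 3′ on the gene's strand.
Dnaja1, chr4:40722304-40722391, plus strand: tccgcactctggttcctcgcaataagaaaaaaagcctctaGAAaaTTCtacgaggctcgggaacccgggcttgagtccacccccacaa
Dnajb4, chr3:152193846-152193899, minus strand: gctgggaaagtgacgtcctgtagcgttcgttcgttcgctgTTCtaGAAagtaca
Dnajb6, chr5:29735812-29735897, plus strand: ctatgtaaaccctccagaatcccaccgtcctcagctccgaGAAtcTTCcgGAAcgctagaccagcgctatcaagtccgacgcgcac
Dnajc27, chr12:4082324-4082408, plus strand: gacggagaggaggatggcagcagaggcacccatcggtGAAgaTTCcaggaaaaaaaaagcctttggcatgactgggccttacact
Dnajc3, chr14:118937787-118937885, plus strand: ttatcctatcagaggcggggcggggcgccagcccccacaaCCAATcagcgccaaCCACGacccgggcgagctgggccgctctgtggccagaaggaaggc
The match lies 124 bases before the start in Dnaja1, 14 before the second start in Dnajb4, 46 before the first start in Dnajb6, 213 before it in Dnajc27 and 105 before it in Dnajc3. Of the 7 members with a pair, the other 3 were Dnaja4, Dnajc10 and Dnajc5g. Neither window of Dnajb1 holds these letters, although Dnajb1 is named above as induced by heat shock factor. The search therefore misses at least this target, and a member without a match may still have a site.

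The J-domain proteins of the ER lumen work with the HSP70 of that compartment, BiP. BiP's gene, Hspa5, had a mean of 445 ± 25.5 CPM in the Model libraries and 372 ± 20.7 in the IsoL libraries, with groups that did not overlap (log2 -0.26, interval -0.38 to -0.14, edgeR adjusted p = 0.0687). Of the 5 members assigned to the ER lumen, Dnajb11 was the one with the lowest fold change. Dnajb11 (ERdj3), a BiP partner that is also secreted with unfolded clients, read 57.4, 65.5, 58.2 and 59.2 CPM in Model 1 to 4 and 59.2, 49.6, 51.8 and 53.4 CPM in IsoL 1 to 4. IsoL 1 lay within the Model range and the other IsoL libraries below it (log2 -0.17, interval -0.31 to -0.03, edgeR adjusted p = 0.296). Dnajb9 (ERdj4), which holds the stress sensor IRE1 in check, was at 83.1 ± 8.13 and 79.5 ± 2.24 CPM, with Model 2 the highest at 93.3 and Model 4 the lowest at 73.4. Dnajc3 (p58IPK), which carries the ER element shown above, was at 93.3 ± 2.24 and 90.5 ± 5.42 CPM (log2 -0.05, interval -0.16 to 0.07). Dnajc10 (ERdj5), a disulphide reductase, was at 142 ± 6.23 and 143 ± 7.04 CPM (log2 0.01, interval -0.10 to 0.12).

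Of the 4 tested members assigned to vesicles and endosomes, 1 was below Model and 3 above, and 0 passed. Dnajc27 (ENSMUSG00000020657, chromosome 12, 4132583 to 4160606 in the deposited table), a Rab-like GTPase with a J domain, read 217, 228, 201 and 208 CPM in Model 1 to 4 and 240, 245, 237 and 251 CPM in IsoL 1 to 4. It was the only member whose IsoL libraries were all above the Model libraries, a pattern that 4.05% of all tested genes showed. The means of 214 ± 11.9 and 243 ± 6.22 CPM gave a log2 fold change of 0.19 (SE 0.049, interval 0.08 to 0.29, edgeR adjusted p = 0.121). Without Model 2, its highest Model library, the fold change was 0.22 (edgeR adjusted p = 0.0184). DESeq2 gave an adjusted p of 0.0171 and limma voom 0.0147. Dnajc6 read 529, 468, 486 and 501 CPM in Model 1 to 4 and 452, 481, 466 and 443 CPM in IsoL 1 to 4. Its groups overlapped through Model 2 (log2 -0.11, 95% interval -0.21 to -0.00248, edgeR adjusted p = 0.364). Dnajc5 was at 445 ± 17.3 and 447 ± 19.8 CPM (log2 0.00757, interval -0.09 to 0.11). Dnajc13 (RME-8), which acts in sorting at endosomes, was at 83.9 ± 5.87 and 86.5 ± 0.223 CPM (log2 0.04, interval -0.07 to 0.16).

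Dnajc12 is the J-domain protein that binds the aromatic amino acid hydroxylases, among them tryptophan hydroxylase, the enzyme PCPA inhibits. Dnajc12 (ENSMUSG00000036764, chromosome 10, 63218222 to 63246355 in the deposited table) read 28.7, 33.3, 27.6 and 29.5 CPM in Model 1 to 4 and 23.3, 21.9, 26.5 and 27.3 CPM in IsoL 1 to 4. The groups did not overlap, with a narrow gap between IsoL 4 and Model 3. The means of 29.8 ± 2.46 and 24.7 ± 2.57 CPM gave a log2 fold change of -0.27 (SE 0.088, interval -0.46 to -0.08, edgeR adjusted p = 0.215), and no alternative brought the adjusted p under 0.05. Dnajc12 is known from monoaminergic neurons. Its lowest IsoL libraries, 1 and 2, were also the lowest in summed hypothalamic markers, at 148 and 201 CPM against 251 in IsoL 3 and 220 in IsoL 4. The same 2 libraries had the high choroid plexus sums (674 and 578 CPM against 59.8 and 10.6) and the high cortical and hippocampal sums (264 and 272 against 211 and 208). IsoL 4 was above IsoL 3 in Dnajc12 but below it in the hypothalamic sum. In Model, the library highest in Dnajc12, Model 2 at 33.3 CPM, had the lowest hypothalamic sum. That sum was 274 CPM, against 313, 313 and 329 CPM in Model 1, 3 and 4. The part of tissue make-up in the Dnajc12 result was not tested. Summed serotonin neuron markers overlapped between the groups, at 5.51 to 28.7 CPM in Model and 8.10 to 41.1 in IsoL.

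Of the 7 members assigned to mitochondria, 2 were below Model and 5 above. Dnajc15, of the motor that pulls proteins into the matrix, read 97.6, 90.2, 91.2 and 88.9 CPM in Model 1 to 4 and 103, 101, 97.1 and 97.7 CPM in IsoL 1 to 4. Its groups overlapped through Model 1 (log2 0.12, interval 0.01 to 0.22, edgeR adjusted p = 0.317). Dnajc19, the other J-domain protein of that motor, was at 14.2 ± 1.25 and 14.2 ± 0.818 CPM (log2 0.00494, interval -0.19 to 0.20). Dnajc19 overlaps Fxr1 on the opposite strand in the deposited coordinates. Dnajc30, which serves the upkeep of respiratory complex I, read 8.39, 8.32, 6.19 and 7.06 CPM in Model 1 to 4 and 5.46, 6.09, 6.77 and 5.41 CPM in IsoL 1 to 4. It had the lowest fold change of the family on few counts, and its groups overlapped (log2 -0.34, interval -0.64 to -0.04, edgeR adjusted p = 0.316). Dnajc30 shares 758 bases with Bud23 on the opposite strand, which had a log2 fold change of -0.00394. Dnajc11, of the inner membrane's cristae complex, had a log2 fold change of 0.06 (interval -0.07 to 0.18), and Dnajc4 one of 0.12 (interval -0.13 to 0.36).

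In the nucleus, Dnajc8, a splicing-associated protein, was at 98.6 ± 3.92 and 96.5 ± 6.01 CPM (log2 -0.03, interval -0.15 to 0.09). Dnajc9, a histone chaperone, was at 26.0 ± 1.59 and 27.2 ± 2.28 CPM (log2 0.06, interval -0.11 to 0.23). Dnajc25, a membrane protein, was at 6.37 ± 0.819 and 5.40 ± 0.230 CPM (log2 -0.24, interval -0.53 to 0.05, edgeR adjusted p = 0.473). Dnajc25 shares 22364 bases with Gm20503 on the same strand, and the part of this overlap in its low level was not tested. By the deposited coordinates 16 of the 44 members overlap another gene, so some of their reads may be split or lost.

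Members that had over 1000 counts varied little between libraries of a group. Over these 34 genes the coefficient of variation had a median of 5.75% in Model and 4.89% in IsoL. It was highest for Dnajc21, a factor of ribosome biogenesis, in Model (13.6%) and for Dnajc1, an ER membrane protein with its J domain in the lumen, in IsoL (11.6%).

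**Figure D4:**
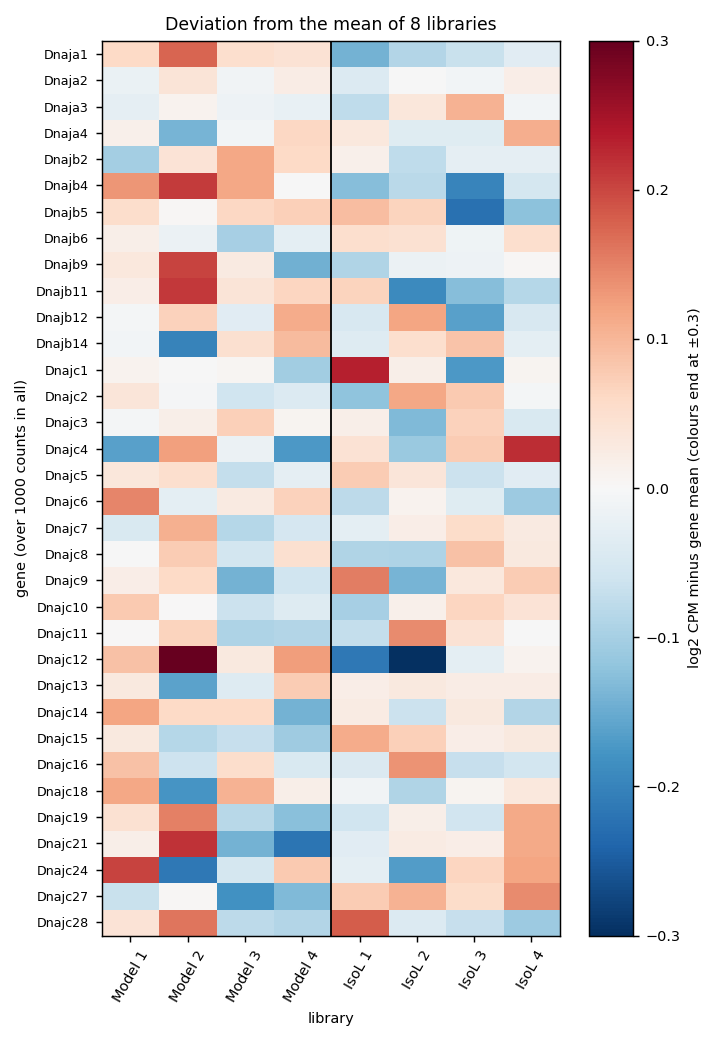
Deviation of log2 CPM from the gene's mean over 8 libraries (colour) for the 34 tested members with over 1000 counts (rows) in each library (columns; the line parts Model from IsoL). Model 2 holds many of the deepest colours, and only Dnaja1, Dnajb4, Dnajc12 and Dnajc27 part the groups fully.

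The HSP70 side of the partnership was read from a list of 29 genes. Of its 15 HSP70 genes, a group that takes in the HSP110 type, 12 were below Model and 1 passed, beside 0.275% of all tested genes. That gene was Hspa1a, an inducible form (log2 fold change -2.93, interval -3.90 to -1.97, edgeR adjusted p = 0.0344). Its value rests on few reads, with 24, 23, 58 and 57 counts in Model 1 to 4 and 3, 5, 10 and 7 in IsoL 1 to 4. IsoL 1 was at the 3 counts taken as the limit of detection. In 4 of the 15 every IsoL library was below every Model library, beside 4.42% of all tested genes. Besides Hspa1a and Hspa5 these were Hspa1b, the near-identical copy of Hspa1a between which reads can be split (log2 -1.01, edgeR adjusted p = 0.074), and Hsph1, an HSP110-type exchange factor (log2 -0.23, edgeR adjusted p = 0.053). Hspa8, the constitutive HSP70 that most cytosolic J-domain proteins serve, was at 1083 ± 95.8 and 1063 ± 18.6 CPM (log2 -0.03, interval -0.15 to 0.10), and Hspa9, the mitochondrial one, had a log2 fold change of -0.02 (interval -0.11 to 0.08). Of the 3 HSP70 genes above Model, Hspa2 had the highest fold change, with groups that overlapped (log2 0.22, interval 0.03 to 0.42, edgeR adjusted p = 0.311). None of the 10 nucleotide exchange factors listed apart from these 15 genes passed, with 8 below Model. Of 4 cofactors of HSP70 or HSP90, none passed and 4 were below Model. Among the cofactors, 1 had every IsoL library below every Model library, Chordc1 (log2 -0.24, interval -0.35 to -0.13, edgeR adjusted p = 0.0687). Among J-domain genes that bear other names, Sec63, Gak, Hscb and Pam16 had log2 fold changes of -0.11 to 0.04, and 0 of these 4 passed. The median log2 fold change was -0.08 over the 15 HSP70 genes and -0.04 over the 10 exchange factors listed apart, beside -0.00554 over the J-domain members.

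The members whose pattern over the 8 libraries was most like that of Dnajb1, by Pearson's r of log2 CPM, were Dnaja1 (0.886), Dnajc12 (0.847), Dnajb4 (0.822), Dnajc30 (0.694) and Dnajb11 (0.669). Since Dnajb1 parts the groups fully, these values mostly repeat the group difference. Within groups, on deviations from the group means, r with Dnajb1 was 0.369 for Dnaja1, 0.728 for Dnajc12, -0.195 for Dnajb4, -0.0577 for Dnajc30 and -0.0844 for Dnajb11.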

How the data were processed

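The authors deposited read counts per gene and library, with FPKM per the file headers; the submitters' processing notes name fastp 0.22.0, HISAT2 2.1.0 and HTSeq 0.9.1, and no genome build is named in them, the labels or the headers. The deposited FPKM matched counts divided by the table's gene length and summed counts (largest relative difference 3.34e-08) and served only for levels between genes. Tests used the counts: filterByExpr kept 14536 genes, TMM scaled them, and edgeR 4.0.16 under R 4.3.3 gave the robust quasi-likelihood test, with Benjamini-Hochberg adjustment over all of them. SE is the absolute log2 fold change over the square root of F. Means ± SD are of CPM over n = 4 libraries. Alternatives were a replicate block, leaving out single libraries, DESeq2 size factors, all genes unfiltered, DESeq2 1.42.0 and limma 3.58.1 voom. The code was tested on simulated data. Libraries within a group were not duplicates of each other (smallest chi-square per degree of freedom 2.52).

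Named were all 4 class A members, the 6 class B and 10 class C members with the smallest p, and 15 fixed by role; members outside these were chosen after their values were seen. Members, lists and tests were chosen with earlier results of these data known. Assignment of members to compartments was written from textbook knowledge after the files were read.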

Additional observations from a re-analysis of the deposited data

Results flagged for a closer look

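In 4 of 56 groups of 4 libraries (28 named genes in 2 groups), 1 library lay far from the others by Dixon's test at the 95% level; chance flags about 1 in 20 groups. Dnaja1 was at 458 CPM in Model 2, above 418 to 423 in the other Model libraries. Dnajb6 was at 137 CPM in IsoL 3, below 142 to 143 in the others. Dnajc13 was at 86.8 CPM in IsoL 2, above 86.3 to 86.4, a gap of no practical size. Dnajb1 was at 80.7 CPM in Model 4, above 76.3 to 77.0. Each of Dnaja1 and Dnajb1 has its separate library on the side away from IsoL; without Model 2 the log2 fold change of Dnaja1 was -0.13 (edgeR adjusted p = 0.0884), and without Model 4 that of Dnajb1 was -0.51 (edgeR adjusted p = 0.0239).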

How the results depend on the processing

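The count of J-domain members that passed was 0 in edgeR with DESeq2 size factors, without a filter, with the replicate block and without each library except Model 2, so that leaving out a library gave 0 to 1. It was 3 in DESeq2, 1 in limma voom and 1 at an adjusted p of 0.10. The medians over all tested members (-0.0127 to 0.0158), class A (-0.0107 to 0.0162), class B (-0.0729 to -0.0377) and class C (-0.000715 to 0.0208) moved by less than 1 SD between libraries in all 13 alternatives. Of 364 values of single genes, 345 kept direction and side of the threshold, 5 passed where the main test did not, and 14 turned sign. With limma voom, Dnaja4 turned to -0.00427, Dnajc13 to -0.000314 and Dnajb9 to 0.0198; the cause was not tested. With a library left out, 11 values of genes near 0 turned sign, within ranges of -0.0027 to 0.0584 for Dnaja3, -0.0023 to 0.067 for Dnaja4, -0.00773 to 0.0471 for Dnajc10, -0.0149 to 0.0297 for Dnajc5 and -0.0349 to 0.0607 for Dnajc19.

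Over all genes, 17 passed with the replicate block, against 40 without it. Same-numbered libraries did not deviate together (r = 0.0199 to 0.0696 over genes, for 4 pairs), and 2 of 8 libraries correlated best with their own number, so the numbers were not taken as pairs. Over all genes the calls ranged from 6 to 146 with a library left out. Depth limits the members under 1000 counts, whose intervals are wide.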
